A study of Mus musculus with 7 samples.

Results

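The enzymes described here are the 41 mouse genes of glutathione, glucuronide and sulfate conjugation that were measured among 16819 named genes on liver expression arrays. They were chosen by name: every probe set of the value table with a single gene symbol that began with Gsta, Gstm, Gstp, Gstt, Gstk, Gsto, Gstz, Mgst, Ugt1a, Ugt2, Ugt3 or Sult and a digit. The rule is one of names alone, set with earlier results of these data known, and each of the 41 genes had 1 such probe set. There were 22 glutathione transferases (2 Gsta, 7 Gstm, 2 Gstp, 4 Gstt, 4 of the Gstk, Gsto and Gstz classes and 3 membrane-bound Mgst). The others were 10 UDP-glycosyltransferases (8 Ugt2 glucuronosyltransferases and 2 Ugt3) and 9 sulfotransferases (Sult). The Ugt1a family had 0 members, because 1 probe set carried 8 symbols together and was left out as not assigned to 1 gene.

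Conjugation is the second phase of detoxification, in which a polar group is joined to a drug, steroid, bile acid, bilirubin or reactive lipid so that it dissolves in bile or urine. Glutathione transferases add the tripeptide glutathione to electrophiles, UDP-glucuronosyltransferases of the endoplasmic reticulum add a sugar acid from UDP-glucuronic acid, and cytosolic sulfotransferases add sulfate from the donor PAPS. Hepatocytes carry most of this capacity in the body, and several of the genes are known to differ between male and female mouse liver and to be induced through sensors such as Nrf2, the aryl hydrocarbon receptor and the nuclear receptors CAR and PXR.

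The livers came from male mice of the genotype Dicer1 fl/fl, whose background mixed 129S4 with C57BL/6, so that every group, the control included, carried the loxP-flanked alleles of Dicer1, the enzyme that cuts microRNA precursors. Injection was at an age of 8 to 10 weeks, with AAV8-Ttr-Cre, a viral vector named for the promoter of transthyretin, a gene of hepatocytes. Livers were taken at 0 weeks (control, 3 arrays), 2 weeks (2 arrays) and 4 weeks (2 arrays), after a fast of 4 hours, and flash-frozen tissue gave the RNA. No group here had a virus without Cre and none of the controls was taken at 2 or 4 weeks, so loss of Dicer1, the virus, Cre itself and the passing of time cannot be told apart. The labels call the replicates biological, and each p-value measures the spread between these arrays alone. In whole tissue, fewer cells of a type and less RNA per cell cannot be told apart either.

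All levels are log2 probe set signals as deposited, and a difference of 1 on this scale is a doubling or halving. Levels are not compared between genes, since each probe set has its own response. A gene is said to have risen or fallen only where the adjusted p of the limma fit, taken over all 16819 genes by the Benjamini-Hochberg method, was under 0.05. Dicer1 read 8.73, 8.71 and 8.58 in the controls, then 8.03 and 7.79 at 2 weeks, then 7.97 and 8.05 at 4 weeks. All 4 arrays after Cre lay below all controls, and Dicer1 fell by 0.71 (SE 0.07, adjusted p = 0.00675), or 1.64-fold. The summed level of the 8 measured hepatocyte markers was 17.01 to 17.04 in the controls and 16.95 to 16.97 after Cre, without overlap. Of the 8, Tat fell by 0.62 (adjusted p = 0.0334) and Fgb rose by 0.22 (adjusted p = 0.0354). Neither call held without any single control. The others did not pass: Alb, Cyp2e1 and Hnf4a differed by -0.003, -0.04 and 0.01, and Apoa1, Ttr and Apob by -0.09, -0.10 and 0.10. The sum of 8 stellate cell markers was 12.14 to 12.20 in the controls and 12.32 to 12.55 after Cre, again without overlap. All these sums add unlogged signals, so that the probe sets with the highest signal weigh most. In the stellate list that was Dcn (mean 11.52), which differed by 0.25 and did not pass (adjusted p = 0.159). At an unadjusted p under 0.05, 3 of the 8 were higher and 0 lower. Of these 8, 1 was higher, Pdgfrb, by 0.31 (adjusted p = 0.0238). Among the fits without a single control, its call held only without control replicate 2. The sum of 5 neutrophil markers was 8.15 to 8.21 in the controls and 8.23 to 8.30 after Cre, with 0 of the 5 passing (1 higher and 0 lower at an unadjusted p under 0.05). All 5 were dim (level percentiles 2.2 to 26.6 among all genes), where a small log2 difference is uncertain. The sum of 7 endothelial markers was 12.33 to 12.36 in the controls, 12.21 and 12.44 at 2 weeks and 12.56 and 12.78 at 4 weeks, so that both 4-week arrays were above the controls, and Clec4g of this list was 0.60 higher at 4 weeks (adjusted p = 0.0438, a call lost without each of the 7 arrays in turn). Sums for Kupffer cell, bile duct, lymphocyte and erythroid markers overlapped between controls and arrays after Cre. The part of these shifts in the results was not tested. On the first principal component, which held 62% of the variance, the controls lay at -23.8 to -22.4, the first 2-week array at 6.56 and the other 3 arrays after Cre at 18.39 to 24.26. The first 2-week array thus stood nearer the controls, and results are also given without it where that matters.

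Among the 41 enzymes, change ran in one direction. At 2 weeks 4 fell and 0 rose, at 4 weeks the same 4 fell and 0 rose, and with both times joined against the controls 7 fell and 0 rose. The 4 were the sulfotransferases Sult1b1 and Sult5a1, the omega-class transferase Gsto1 and the glucuronosyltransferase Ugt2a3, and the comparison of both times added Sult1d1, Ugt2b1 and the zeta-class transferase Gstz1. The other 34 enzymes passed in no comparison. Of all 16819 genes, 2.47% fell and 3.46% rose at 2 weeks, 4.62% fell and 5.15% rose at 4 weeks, and 6.12% fell and 6.79% rose with both times together, so that falls and rises were about as frequent in the whole table. The enzymes that fell were 9.76% of the 41 at 2 weeks, 9.76% at 4 weeks and 17.1% with both times together. At an unadjusted p under 0.05, 14 enzymes were lower and 1 higher at 2 weeks, 13 lower and 3 higher at 4 weeks, and 16 lower and 2 higher with both times together. At the same cut, 11.1% of all genes were lower and 11.8% higher at 2 weeks, 11.9% lower and 12.9% higher at 4 weeks, and 13.2% lower and 14.2% higher with both times together.

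The same lean was visible without a threshold. The median log2 difference of the 41 enzymes after Cre was -0.18, beside 0.00 for all genes, with 27 of the 41 negative. All 4 arrays after Cre lay below all 3 controls for 16 enzymes, and above them for 2, Gstm3 and Gstm4. Over all genes those shares were 12.2% below and 12.9% above. Each array after Cre showed it: the median difference of the 41 from the control means was -0.15 and -0.15 at 2 weeks and -0.16 and -0.12 at 4 weeks. No call was made between 4 and 2 weeks, where 0.00595% of all genes rose and 0% fell. At an unadjusted p under 0.05 (4.2% of all genes higher and 3.23% lower) that comparison held 1 enzyme, Ugt2b38, which read 10.43 and 10.47 at 2 weeks, then 10.69 and 10.76 at 4 weeks, a difference of 0.27 (SE 0.06, adjusted p = 0.40).

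**Figure D1:**
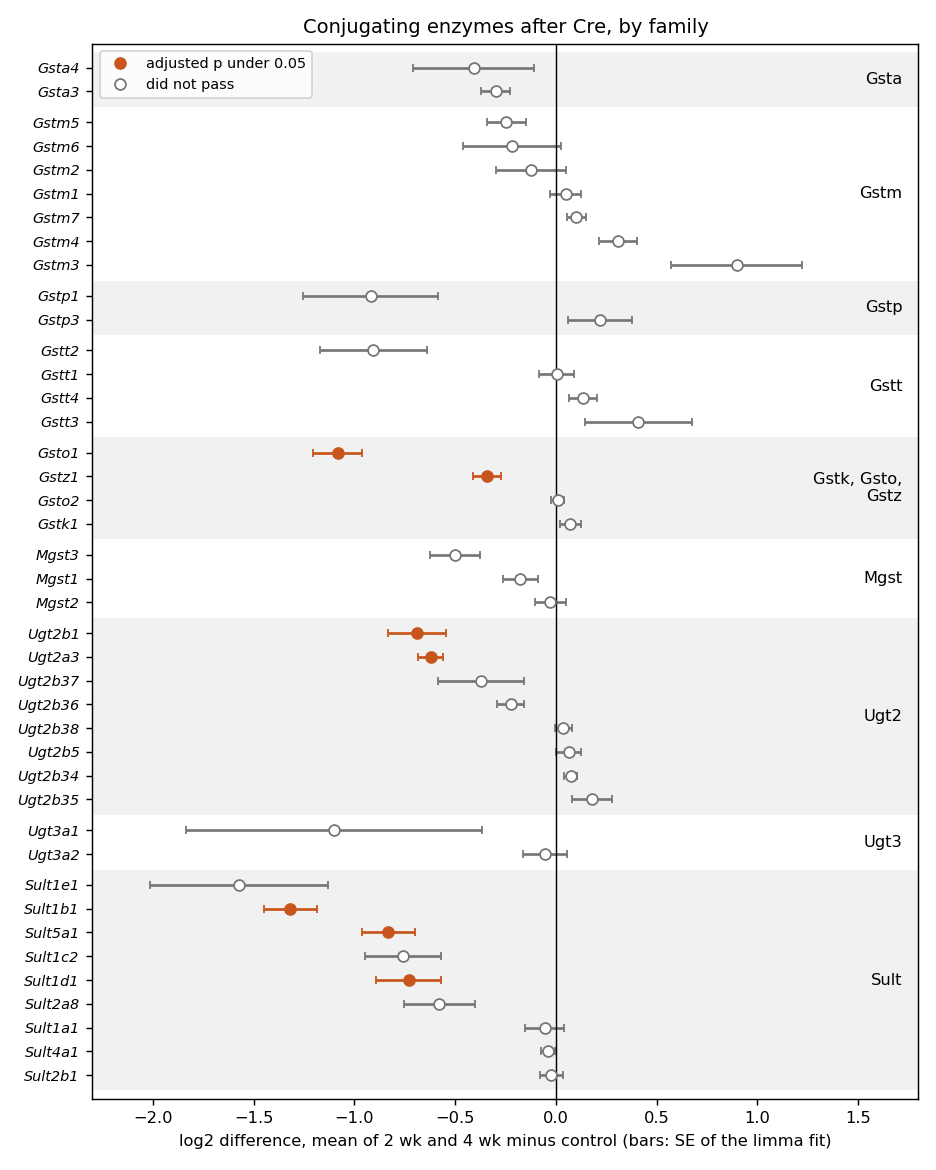
Log2 difference between the mean of the 2-week and 4-week groups and the controls for each of the 41 conjugating enzymes (rows, grouped by family), with bars for the SE of the fit and filled points for an adjusted p under 0.05. The 7 enzymes that passed the test with both times together all lie on the lower side. The 9 Sult points lie to the left of 0, with Sult1a1, Sult2b1 and Sult4a1 close to it.

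Leaving out 1 array at a time showed how far the calls rest on single arrays. Of the 7 enzymes that fell with both times together, 7 remained called without either 2-week array, and 3 remained without any single control or either 4-week array. The 3 were Sult1b1, Gsto1 and Ugt2a3. The number of calls in the whole table moved as well, from 2171 with all arrays to between 570 and 2788.

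The sulfotransferases had the family median furthest from 0. Of the 9 measured, 3 fell (Sult1b1, Sult5a1 and Sult1d1) and 0 rose, beside 6.12% and 6.79% of all genes. All 9 had a negative difference with both times together, with a median of -0.73. For Sult1a1, Sult4a1 and Sult2b1 it was only -0.06, -0.04 and -0.02, and at 4 weeks alone 2 of the 9 were positive. At an unadjusted p under 0.05, 6 were lower and 0 higher, beside 13.2% and 14.2% of all genes. Members of this family are close in sequence, as are the Gsta, Gstm, Gstp and Ugt2b genes, and probes can be shared between near-identical copies, so that the value of a single gene in these families is less certain.

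Sult1b1, which sulfates thyroid hormones and small phenols, read 8.62, 9.02 and 8.93 in the controls, then 7.75 and 7.41 at 2 weeks, then 7.42 and 7.56 at 4 weeks. Every array after Cre was below every control. At 2 weeks it fell by 1.27 (SE 0.16, adjusted p = 0.0187), or 2.42-fold, and at 4 weeks it fell by 1.36 (SE 0.16, adjusted p = 0.0117), or 2.57-fold. With both times together the fall was 1.32 (SE 0.13, adjusted p = 0.00632), the strongest of the 41 enzymes by p, and it passed without each single array (largest adjusted p 0.0424). At 2 weeks alone the call was lost without control replicate 2 or 3, the second 2-week array or either 4-week array (adjusted p 0.0569 to 0.085), and at 4 weeks alone without control replicate 2 or 3 or either 4-week array (0.0503 to 0.0816).

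Sult5a1, a sulfotransferase whose substrates are poorly known, read 8.80, 8.61 and 8.48 in the controls, then 7.59 and 7.99 at 2 weeks, then 7.93 and 7.67 at 4 weeks. The groups before and after Cre did not overlap. At 2 weeks it fell by 0.84 (SE 0.16, adjusted p = 0.0447), at 4 weeks it fell by 0.82 (SE 0.16, adjusted p = 0.0343) and with both together it fell by 0.83 (SE 0.13, adjusted p = 0.0175), or 1.78-fold. This last call was lost without any single control array or either 4-week array (adjusted p 0.0535 to 0.0754). The 2-week call was lost without each of the 7 arrays in turn (0.0702 to 0.135), and the 4-week call without any single control or either 4-week array (0.0856 to 0.171).

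Sult1d1, which in mice sulfates catecholamines and other phenols, read 11.63, 11.60 and 11.89 in the controls, then 10.58 and 11.19 at 2 weeks, then 11.01 and 11.12 at 4 weeks. The 4 later arrays were all lower, and the first 2-week array was the lowest. The fall of 0.73 with both times together (SE 0.16, adjusted p = 0.039, 1.66-fold) passed, while neither 2 weeks (-0.82, adjusted p = 0.067) nor 4 weeks (-0.64, adjusted p = 0.101) passed alone. The call was lost without any single control or either 4-week array (adjusted p 0.108 to 0.139).

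Of the sulfotransferases that did not pass, Sult1e1, the estrogen sulfotransferase, had the largest difference and the widest controls, but its probe set was among the dimmest of all genes (mean 4.43, with values on the array from 3.15 up), where a log2 difference is least certain. It read 4.86, 6.34 and 4.77 in the controls, then 3.84 and 3.55 at 2 weeks, then 3.43 and 4.20 at 4 weeks. The groups did not overlap, yet the second control stood apart from the other two, and the difference was -1.57 (SE 0.44, adjusted p = 0.0772). Sult2a8, a bile acid sulfotransferase of mouse liver, read 12.45, 12.37 and 12.70 in the controls, then 12.25 and 11.60 at 2 weeks, then 12.04 and 11.83 at 4 weeks (difference -0.58, SE 0.18, adjusted p = 0.0962). It passed only without the first 2-week array (-0.74, adjusted p = 0.0263). Sult1c2 differed by -0.76 (SE 0.19, adjusted p = 0.0551), with no overlap between groups, and passed under quantile normalization, median centring, robust eBayes and without dim genes (adjusted p 0.0384 to 0.0478). Sult1a1, the main phenol sulfotransferase, differed by -0.06 with a 95% interval of -0.295 to 0.184, and Sult2b1 and Sult4a1 differed by -0.02 and -0.04.

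**Figure D2:**
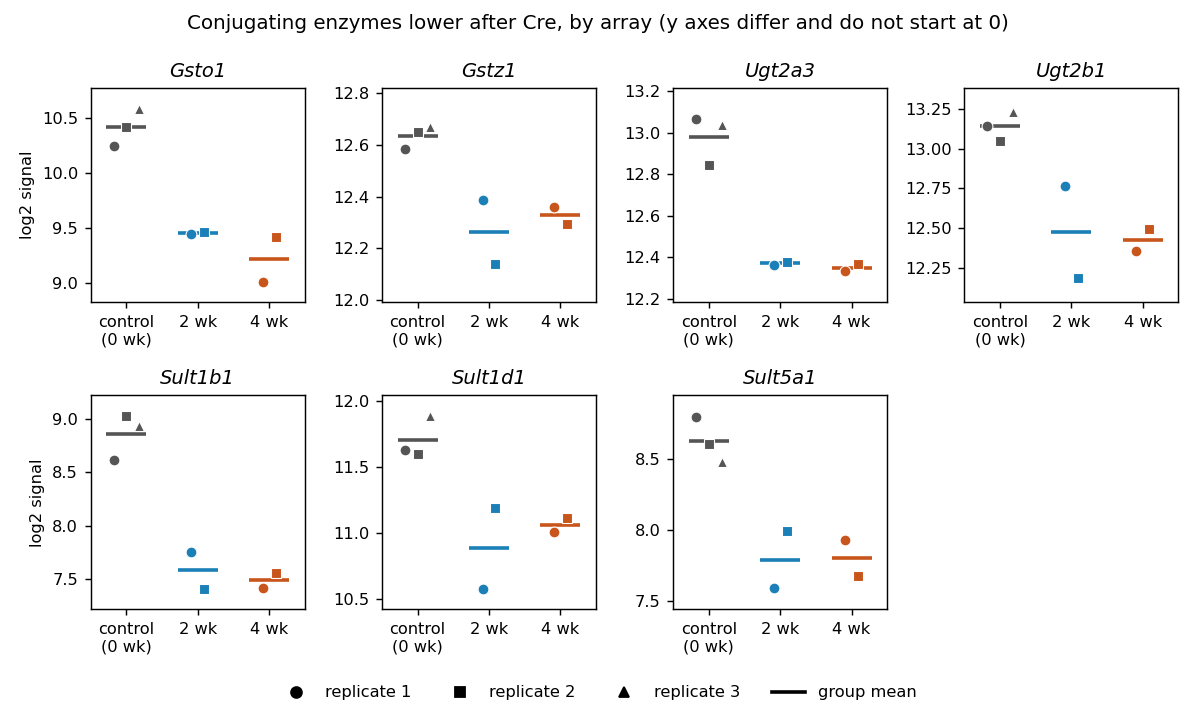
Log2 signal on each of the 7 arrays (points, shaped by replicate number) and the group means (lines) for the 7 enzymes that fell after Cre and passed the test. In each panel the 2-week and 4-week points lie below all 3 control points, and the axes differ between panels and do not start at 0.

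Among the UDP-glycosyltransferases, 2 of the 8 Ugt2 genes fell and neither Ugt3 gene passed. Ugt2a3, a glucuronosyltransferase that accepts bile acids, read 13.06, 12.84 and 13.04 in the controls, then 12.36 and 12.38 at 2 weeks, then 12.33 and 12.37 at 4 weeks. The 4 arrays after Cre lay close together, all below the controls. At 2 weeks it fell by 0.61 (SE 0.07, adjusted p = 0.0183), at 4 weeks it fell by 0.63 (SE 0.07, adjusted p = 0.0123) and with both together it fell by 0.62 (SE 0.06, adjusted p = 0.00642, 1.54-fold). The last call passed without each single array (largest adjusted p 0.0409). The 2-week call was lost without control replicate 1 or 3, the second 2-week array or either 4-week array (adjusted p 0.0555 to 0.0791), and the 4-week call without control replicate 3 or either 4-week array (0.0567 to 0.0809).

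Ugt2b1, one of the steroid and drug glucuronosyltransferases of the endoplasmic reticulum, read 13.14, 13.05 and 13.23 in the controls, then 12.77 and 12.19 at 2 weeks, then 12.36 and 12.50 at 4 weeks. Again no array after Cre reached the control range. The fall was 0.69 with both times together (SE 0.14, adjusted p = 0.0342, 1.61-fold), and it missed the threshold at 2 weeks (adjusted p = 0.0845) and at 4 weeks (adjusted p = 0.0596). It was lost without any single control or either 4-week array (adjusted p 0.101 to 0.131).

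The remaining Ugt2b genes included several with narrow intervals around 0. Ugt2b34 read 12.79, 12.85 and 12.81 in the controls and 12.83 to 12.93 after Cre, a difference of 0.07 with a 95% interval of -0.009 to 0.155. For Ugt2b5 the difference was 0.06, with an interval of -0.093 to 0.220. Ugt2b36 was lower on all 4 arrays after Cre by 0.22 on average (difference -0.22, adjusted p = 0.0865), and passed only without the first 2-week array (-0.28, adjusted p = 0.0266). Ugt2b35 differed by 0.18, and Ugt2b37 differed by -0.37 (SE 0.21, adjusted p = 0.337) with 1 control at 8.36 and the other 6 arrays between 7.40 and 7.68.

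The Ugt3 enzymes use other sugars than glucuronic acid. Ugt3a1 read 10.45, 10.34 and 10.19 in the controls, then 8.50 and 9.71 at 2 weeks, then 10.84 and 7.85 at 4 weeks. The 4-week arrays lay on opposite sides of the controls, almost 3 log2 units apart (2.99), the largest gap between replicates among the 41 enzymes, and the difference of -1.10 had an SE of 0.73 (adjusted p = 0.41). Its neighbour Ugt3a2 differed by -0.05, with an interval of -0.322 to 0.217.

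In the gene order of the mouse assembly GRCm38.p6, 13 Ugt2 and Sult1 genes lie in a row on chromosome 5, and 11 of them were measured. The order runs Ugt2b34, Ugt2b1, Ugt2b35, Ugt2b36, Ugt2b5, Ugt2b37, Ugt2a3, Ugt2b38, Ugt2a1, Ugt2a2, Sult1b1, Sult1d1 and Sult1e1, and Ugt2a1 and Ugt2a2 were not analysed here. Of the 11, 4 fell (Ugt2b1, Ugt2a3, Sult1b1 and Sult1d1), and direct neighbours differed: Ugt2b1 fell by 0.69 between Ugt2b34 and Ugt2b35, at 0.07 and 0.18. At the end of the row, the neighbours Sult1b1 and Sult1d1 differed by -1.32 and -0.73 and passed. The last gene, the dim Sult1e1, did not pass. On chromosome 3, 0 of the 7 adjacent Gstm genes passed, with 2 higher and 1 lower at an unadjusted p under 0.05. Of all genes, 6.12% fell and 6.79% rose with both times together, so a count of 0 among 7 is near that share.

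**Figure D3:**
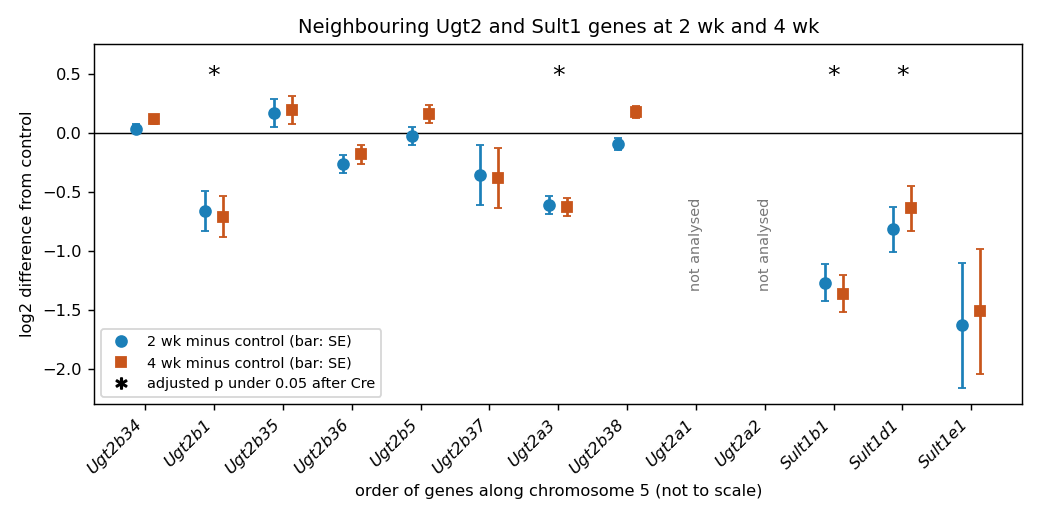
Log2 difference from the controls at 2 and 4 weeks, with standard errors, for the Ugt2 and Sult1 genes of chromosome 5 in their order along it, equally spaced, with stars for an adjusted p under 0.05 with both times together. Ugt2b1 and Ugt2a3, which fell, each stand between Ugt2b genes that did not pass, Sult1b1 and Sult1d1, which also fell, are neighbours, and Ugt2a1 and Ugt2a2 have no value.

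The promoters of the 6 enzymes with the largest falls that passed (Sult1b1, Gsto1, Sult5a1, Sult1d1, Ugt2b1 and Ugt2a3) are shown here, so that the letters can be read beside the values. That of Gsta3, which did not pass, is shown too. Of the 37 enzymes with a promoter window, only Gsta3 had letters matching both the core that Nrf2 binds and the half-site of the hepatocyte factor HNF1. Sequences are from RefSeq, assembly GRCm38.p6, on the strand of the gene, from 250 bases before to 50 bases after an annotated start. A window was found for 37 of the 41 enzymes (49 windows, since some genes have several starts), and Gsta4, Gstt2, Ugt3a2 and Sult4a1 had none. Capitals mark matches to the 5 motifs described next. The windows lie on chromosome 5 at chr5:87337146-87337445, minus strand (Ugt2a3), chr5:87536173-87536472, minus strand (Sult1b1, the second of its starts; the first had no match and is not shown), chr5:87568957-87569256, minus strand (Sult1d1) and chr5:86926454-86926753, minus strand (Ugt2b1), on chromosome 8 at chr8:123158231-123158530, minus strand (Sult5a1), on chromosome 19 at chr19:47854723-47855022, plus strand (Gsto1), and on chromosome 1 at chr1:21240335-21240634, plus strand (Gsta3).
Ugt2a3: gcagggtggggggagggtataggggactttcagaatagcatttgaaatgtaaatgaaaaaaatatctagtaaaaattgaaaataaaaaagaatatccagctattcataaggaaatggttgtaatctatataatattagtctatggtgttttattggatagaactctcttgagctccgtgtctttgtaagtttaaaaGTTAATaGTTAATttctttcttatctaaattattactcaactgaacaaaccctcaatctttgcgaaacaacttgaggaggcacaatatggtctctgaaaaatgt
Sult1b1: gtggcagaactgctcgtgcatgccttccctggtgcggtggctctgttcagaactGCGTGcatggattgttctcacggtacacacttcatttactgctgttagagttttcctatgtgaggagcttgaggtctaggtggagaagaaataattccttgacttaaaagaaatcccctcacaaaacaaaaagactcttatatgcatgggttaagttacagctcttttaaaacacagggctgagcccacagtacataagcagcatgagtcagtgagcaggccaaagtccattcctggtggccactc
Sult1d1: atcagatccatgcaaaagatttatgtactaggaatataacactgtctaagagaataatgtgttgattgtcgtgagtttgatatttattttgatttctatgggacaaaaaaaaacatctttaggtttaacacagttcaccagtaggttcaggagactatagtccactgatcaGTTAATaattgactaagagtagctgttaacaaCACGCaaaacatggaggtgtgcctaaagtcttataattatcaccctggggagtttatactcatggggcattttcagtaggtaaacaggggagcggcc
Gsto1: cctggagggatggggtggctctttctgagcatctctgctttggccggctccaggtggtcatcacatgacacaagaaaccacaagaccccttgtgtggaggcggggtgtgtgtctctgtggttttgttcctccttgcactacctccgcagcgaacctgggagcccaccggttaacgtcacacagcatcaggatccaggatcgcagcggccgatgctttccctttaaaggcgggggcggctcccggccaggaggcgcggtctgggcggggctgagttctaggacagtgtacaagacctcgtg
Sult5a1: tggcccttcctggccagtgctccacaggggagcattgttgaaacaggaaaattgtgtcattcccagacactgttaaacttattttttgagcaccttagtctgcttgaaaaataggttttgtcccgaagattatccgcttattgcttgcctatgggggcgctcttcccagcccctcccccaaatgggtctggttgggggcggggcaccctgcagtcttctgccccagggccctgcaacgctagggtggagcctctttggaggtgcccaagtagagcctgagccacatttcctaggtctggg
Ugt2b1: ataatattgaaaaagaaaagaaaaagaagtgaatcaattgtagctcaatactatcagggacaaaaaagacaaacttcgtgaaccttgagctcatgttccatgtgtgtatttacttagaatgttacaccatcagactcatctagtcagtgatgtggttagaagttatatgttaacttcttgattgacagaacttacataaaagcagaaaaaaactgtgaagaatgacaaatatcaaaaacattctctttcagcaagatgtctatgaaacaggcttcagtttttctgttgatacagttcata
Gsta3: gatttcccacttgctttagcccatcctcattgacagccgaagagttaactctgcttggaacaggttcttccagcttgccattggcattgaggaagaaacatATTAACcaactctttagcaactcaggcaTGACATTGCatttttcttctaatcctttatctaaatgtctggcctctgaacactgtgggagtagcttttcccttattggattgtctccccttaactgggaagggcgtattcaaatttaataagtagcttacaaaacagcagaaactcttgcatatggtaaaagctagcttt

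The motifs were searched on both strands, and a match describes letters only, not a bound site. The antioxidant response element core that Nrf2 binds (TGACNNNGC) was in 4 of the 49 windows (8.2%; 12.4% of all 32851 promoter windows), those of Gsta3, Gstm5, Gstm7 and Mgst1, and of 0 of the 7 enzymes that fell. In Gsta3 it lies 121 bases before the start. The aryl hydrocarbon receptor core (GCGTG) was in 10 windows (20.4%; 32.4% of all), among them 2 enzymes that fell, Sult1b1 (196 bases before the start) and Sult1d1 (47 bases, other strand). The GAS element of Stat factors (TTCNNNGAA) was in 3 windows (6.1%; 8.3% of all) and in 0 of the 7 that fell. The half-site of the hepatocyte factor HNF1 (GTTAAT) was in 5 windows (10.2%; 7.1% of all), among them Ugt2a3, with 2 copies 54 and 47 bases before its start, and Sult1d1, 79 bases before. In Gsta3 it was 149 bases before the start on the other strand. The C/EBP palindrome TTGCGCAA was in 0 of the 49 (0.2% of all), and Gsto1, Sult5a1, Ugt2b1 and Gstz1 had no match to any of the 5.

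Among the glutathione transferases, 2 of 22 fell, beside 6.12% of all genes, so that the count is near that share. The 2 were of the omega and zeta classes. Gsto1, an omega-class enzyme that reduces dehydroascorbate and methylated arsenic, read 10.25, 10.42 and 10.59 in the controls, then 9.45 and 9.46 at 2 weeks, then 9.01 and 9.42 at 4 weeks. The groups did not overlap, and the first 4-week array was the lowest. At 2 weeks it fell by 0.97 (SE 0.15, adjusted p = 0.0269), at 4 weeks it fell by 1.20 (SE 0.15, adjusted p = 0.0134) and with both together it fell by 1.08 (SE 0.12, adjusted p = 0.00811, 2.12-fold), and the last call passed without each single array (largest adjusted p 0.0474). The 2-week call was lost without any single control or either 2-week array (adjusted p 0.0624 to 0.107), and the 4-week call without control replicate 2 or 3 or either 4-week array (0.0554 to 0.069). Its neighbour Gsto2 differed by 0.01 with an interval of -0.068 to 0.089, and 3 of its 7 values were identical.

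Gstz1, the zeta-class enzyme that isomerises maleylacetoacetate in tyrosine breakdown, read 12.59, 12.65 and 12.67 in the controls, then 12.39 and 12.14 at 2 weeks, then 12.36 and 12.29 at 4 weeks. The fall was small, 0.34 (SE 0.07, adjusted p = 0.0306, 1.27-fold), with no overlap between groups. It passed neither at 2 weeks (adjusted p = 0.0589) nor at 4 weeks (adjusted p = 0.074), and was lost without any single control or either 4-week array (0.0815 to 0.116). Gstk1, the mitochondrial and peroxisomal kappa enzyme, differed by 0.07 (interval -0.053 to 0.198).

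For the pi-class enzyme Gstp1, strongly expressed in male mouse liver, the call depended on which 2-week arrays entered the fit. It read 14.12, 14.11 and 14.14 in the controls, then 13.97 and 12.52 at 2 weeks, then 13.05 and 13.28 at 4 weeks. The controls lay close together and all 4 later arrays were lower, but the 2-week arrays differed by 1.45. The difference of -0.92 (SE 0.33, adjusted p = 0.146) did not pass. It passed without the first 2-week array (-1.28, adjusted p = 0.00481) and also without the second (-0.56, adjusted p = 0.0255), and at 4 weeks it passed where the 2-week arrays did not enter the fit (-0.96, adjusted p = 0.0108). Gstp3 differed by 0.22 (adjusted p = 0.446).

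The theta-class gene Gstt2 behaved in a similar way. It read 9.28, 9.33 and 9.36 in the controls, then 8.50 and 8.24 at 2 weeks, then 7.90 and 9.03 at 4 weeks. All arrays after Cre were lower, with the 4-week arrays 1.13 apart, and the difference of -0.91 (SE 0.27) had an adjusted p of 0.0861. It passed without the first 4-week array (-0.62, adjusted p = 0.0396) and without the second (-1.19, adjusted p = 0.0217). Its neighbour Gstt3 read 9.46, 9.33 and 9.45 in the controls, then 9.08 and 10.19 at 2 weeks, then 9.84 and 10.19 at 4 weeks, with the first 2-week array below the controls and the other 3 above. Its difference was 0.41 (adjusted p = 0.398), and without that array 0.69 (adjusted p = 0.0281), the only enzyme to pass as higher in any of these fits with both times together. Gstt1 differed by 0.00 (interval -0.208 to 0.217) and Gstt4 by 0.14.

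The mu class, whose genes form the tandem row on chromosome 3, had the only enzymes with all later arrays above the controls. Gstm3 read 10.25, 9.71 and 10.10 in the controls, then 10.56 and 11.31 at 2 weeks, then 10.37 and 11.44 at 4 weeks. In each later group 1 array was close to the controls and the other well above it, and the difference of 0.90 (SE 0.32) did not pass (adjusted p = 0.144). Gstm4 differed by 0.31 (SE 0.09, adjusted p = 0.0982). Gstm1, the leading mu enzyme of the liver, read 12.51, 12.41 and 12.48 in the controls and 12.36 to 12.63 after Cre, a difference of 0.05 with an interval of -0.143 to 0.240. Gstm7, Gstm5, Gstm2 and Gstm6 differed by 0.10, -0.25, -0.12 and -0.22. The last of them held 1 low array, 8.66 at 4 weeks against 9.35 to 9.70 on the other 6, and it passed as lower only without the first 4-week array (-0.48, adjusted p = 0.0426).

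Gsta3, the alpha-class enzyme that protects mice from aflatoxin, was among the enzymes nearest to the threshold. It read 13.36, 13.35 and 13.44 in the controls, then 13.26 and 13.03 at 2 weeks, then 13.11 and 12.96 at 4 weeks, all later arrays lower. The difference of -0.30 (SE 0.07, adjusted p = 0.0529) passed without the first 2-week array (-0.35, adjusted p = 0.0276), under quantile normalization (adjusted p = 0.0301) and without dim genes (adjusted p = 0.0387). Gsta4, which detoxifies the lipid aldehyde 4-hydroxynonenal, differed by -0.41 (SE 0.30, adjusted p = 0.455), with 9.18 and 10.27 at 2 weeks and 9.95 and 10.65 at 4 weeks beside 10.31 to 10.58 in the controls. Of the membrane-bound enzymes, Mgst1 differed by -0.18 (adjusted p = 0.259), Mgst2 by -0.03, and Mgst3 by -0.50 (SE 0.12, adjusted p = 0.0534). Mgst3 read 7.07, 7.43 and 7.48 in the controls, then 6.85 and 6.62 at 2 weeks, then 6.99 and 6.85 at 4 weeks, and passed without control replicate 1 (-0.63, adjusted p = 0.038). With all arrays it also passed under quantile normalization, median centring, robust eBayes and without dim genes (adjusted p 0.0376 to 0.0472).

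**Figure D4:**
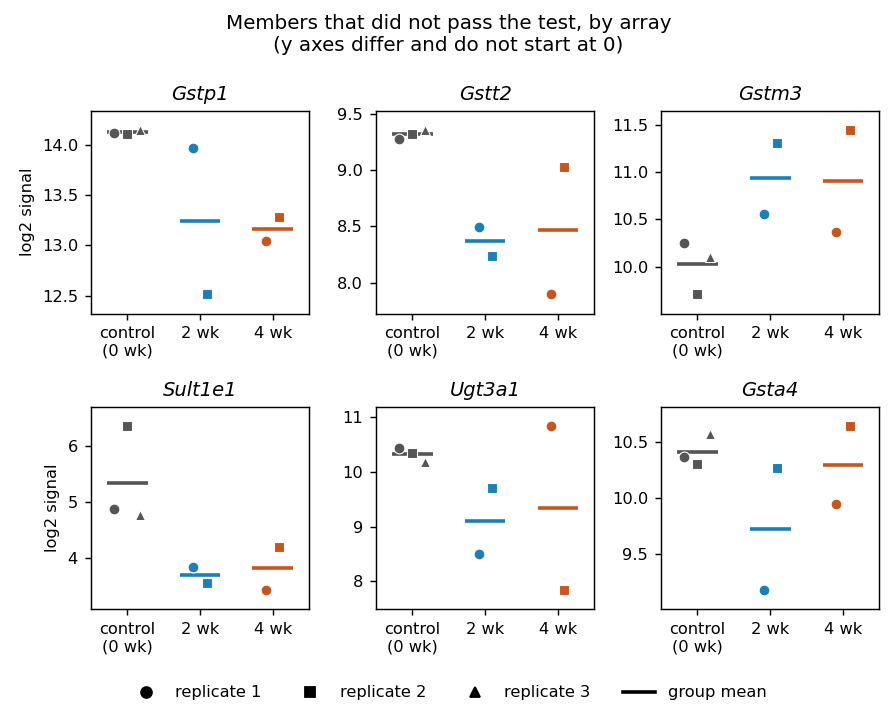
Log2 signal on each array (points) and group means (lines) for 6 enzymes with large differences that did not pass the test. Gstp1, Gstt2 and Sult1e1 have all later points below the controls, Gstm3 has all above, and Ugt3a1 and Gsta4 overlap the controls, with wide gaps between replicates in at least 1 group of each panel.

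The sensors that drive these enzymes and the genes that supply their cofactors or carry away their products were read from fixed lists, compiled with earlier results of these data known, as were phase I enzymes, other transferases, GST-fold, sex-biased and zonation genes. Of the 144 genes of all these lists measured outside the 41, 29 passed with both times together, and 6 of those passed without each single array: Nfe2l2, Stat5b, Abcb11, Nnmt, Asl and Moxd1. Without single control arrays 8 or 9 of the 29 passed, without single 2-week arrays 17 and 15, and without single 4-week arrays 10 and 12. Of all 16819 genes, 12.9% passed with both times together, 6.79% rising and 6.12% falling. These are the shares to set beside the list counts here and below. At an unadjusted p under 0.05, 14.2% of all genes were higher and 13.2% lower. Adjusted p-values below are for both times together.

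Among 17 measured regulators, 3 rose and 1 fell. Nfe2l2, which encodes Nrf2, the oxidative stress sensor of glutathione transferase genes, read 9.07, 9.37 and 9.09 in the controls, then 10.37 and 10.39 at 2 weeks, then 10.00 and 10.30 at 4 weeks. It rose by 1.09 (SE 0.11, adjusted p = 0.00615), or 2.12-fold. Of the 22 glutathione transferases 0 rose, beside 6.79% of all genes, so that the count is near that share. Stat5b, the growth hormone signal transducer that sets sex-biased liver expression, rose by 0.75 (SE 0.06, adjusted p = 0.00424). Ahr, the aryl hydrocarbon receptor, rose by 0.52 (SE 0.09, adjusted p = 0.0249), a call lost without any single control or the second 4-week array (0.0595 to 0.102). Cebpb, a C/EBP factor, fell by 1.03 (SE 0.16, adjusted p = 0.0175), a call lost without control replicate 1 or 3, the second 2-week array or the first 4-week array (0.06 to 0.0828), and Hnf4a differed by 0.01 (adjusted p = 0.902). Of 13 phase I genes that the same sensors drive, 0 passed in either direction by limma, with 4 higher and 0 lower at an unadjusted p under 0.05.

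Of 11 measured genes of glutathione synthesis and turnover, 3 rose and 1 fell, and the risers included both subunits of the first synthetic enzyme and 1 gene of glutathione breakdown. Gclc and Gclm, the catalytic and modifier subunits of the rate-limiting enzyme of glutathione synthesis, rose by 0.95 (SE 0.20, adjusted p = 0.0365) and by 0.41 (SE 0.09, adjusted p = 0.0391). Gclc read 11.06 to 11.20 in the controls and 11.73 to 12.50 after Cre, without overlap, and its call held only without the second 4-week array among the 7 single-array fits (largest adjusted p 0.126), while that of Gclm was lost in all 7 (largest 0.14). Chac1, which degrades glutathione, rose by 0.48 (adjusted p = 0.0432) and Oplah, the oxoprolinase of the same cycle, fell by 0.49 (adjusted p = 0.0334), calls lost in 7 and 5 of the 7 fits. Gpx1, the glutathione peroxidase, was lower on all 4 arrays after Cre and did not pass (difference -0.37, adjusted p = 0.0504). For the donors of the other reactions, 0 of 8 genes of UDP-glucuronic acid supply passed (0 higher and 1 lower at an unadjusted p under 0.05), with Ugdh at -0.09 (adjusted p = 0.802). Of 8 genes of sulfate and PAPS supply 1 rose, the sulfite oxidase Suox, by 0.67 (adjusted p = 0.0292, lost in 5 of the 7 fits), and the PAPS synthase Papss2 differed by -0.11 (adjusted p = 0.636).

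Of 6 measured genes of the hydrolases that remove conjugates and of sulfatase activation, 1 fell and 1 rose. Gusb, the lysosomal beta-glucuronidase, fell by 0.87 (SE 0.14, adjusted p = 0.0178). It read 8.54, 8.53 and 8.57 in the controls, then 7.98 and 7.53 at 2 weeks, then 7.80 and 7.41 at 4 weeks, and the call was lost without any single control or the second 4-week array (0.0575 to 0.0828). Sumf2, a relative of the sulfatase-activating enzyme, rose by 0.55 (adjusted p = 0.0249, lost in 6 of the 7 fits). Arsa, the lysosomal arylsulfatase, was lower at 2 weeks (difference -0.75, adjusted p = 0.0464, a call that held in 1 of the 7 fits, without the first 2-week array) but did not pass at 4 weeks or with both together (adjusted p = 0.0598). Of 10 transporters 2 rose and 1 fell. Abcb11, the bile salt export pump, read 12.19, 11.91 and 12.26 in the controls and 12.73 to 13.14 after Cre and rose by 0.79 (SE 0.10, adjusted p = 0.0112). The uptake carrier Slc22a7 rose by 0.78 (adjusted p = 0.0489) and Abcg2, which exports sulfate conjugates, fell by 0.35 (adjusted p = 0.031), each lost in 6 of the 7 fits, and Abcc2, the canalicular exporter of glutathione and glucuronide conjugates, differed by 0.10 (adjusted p = 0.391).

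**Figure D5:**
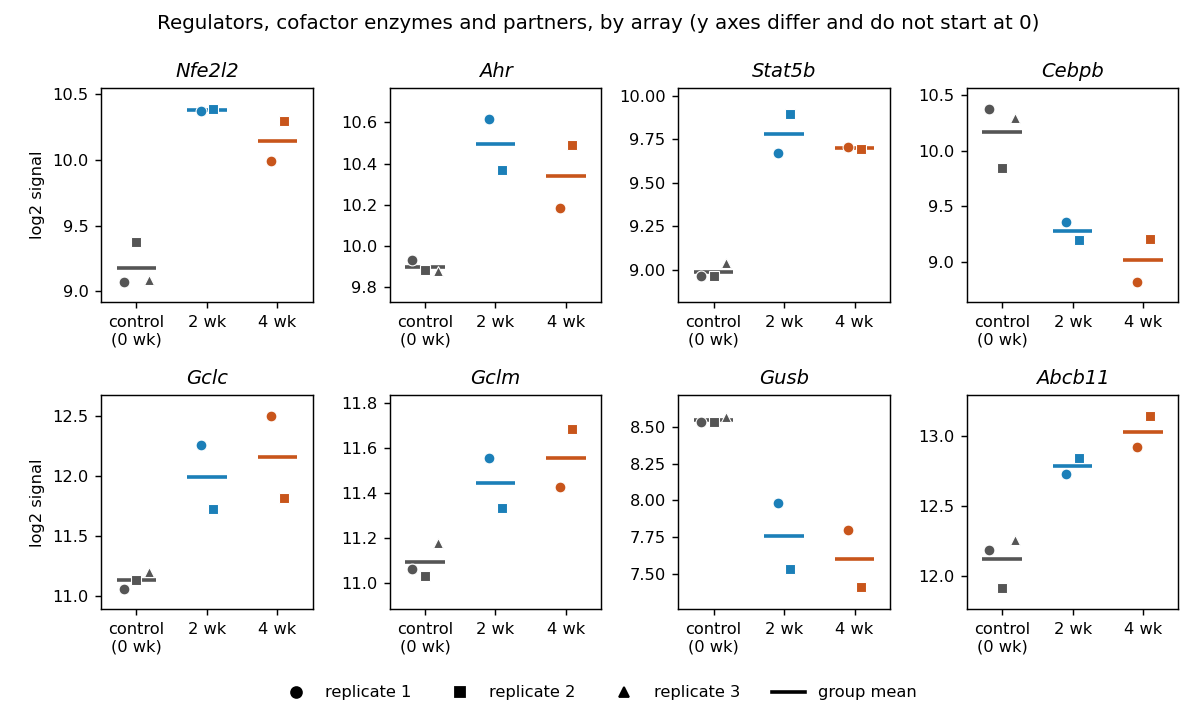
Log2 signal on each array (points) and group means (lines) for 8 regulators and partners of the conjugating enzymes. Nfe2l2, Ahr, Stat5b, Gclc, Gclm and Abcb11 lie higher on all arrays after Cre and Cebpb and Gusb lower, with no overlap with the controls in any panel.

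Enzymes that join other groups were also read. Of 14 measured transferases of methyl, acetyl, acyl and amino acid groups, 4 fell and 0 rose, with a median of -0.33. Of all genes, 6.12% fell and 6.79% rose. Nnmt, which methylates nicotinamide, read 10.50 to 10.75 in the controls and 7.33 to 8.88 after Cre and fell by 2.46 (adjusted p = 0.00488), or 5.52-fold. Tpmt, the thiopurine methyltransferase, fell by 0.81 (adjusted p = 0.0439). Hnmt, the histamine methyltransferase, fell by 0.47 (adjusted p = 0.0479) and Acsm3, an acyl-CoA synthetase of the medium-chain family, fell by 0.36 (adjusted p = 0.036). The 3 calls were lost in 7, 6 and 5 of the 7 single-array fits. Gnmt, the abundant glycine methyltransferase, differed by -0.04. Of 11 measured genes of a list made up mainly of GST-fold and MAPEG genes, Clic4 rose by 0.91 (adjusted p = 0.0145) and Vars fell by 0.36 (adjusted p = 0.0409), lost in 5 and 7 of the 7 fits.

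Since several conjugating enzymes differ between the sexes, sex-biased genes outside the 41 were also read. Of 16 measured male-biased genes 4 fell and 0 rose (median -0.70), beside 6.12% and 6.79% of all genes. Moxd1, a monooxygenase-like gene, fell by 4.83 (adjusted p = 0.000676). At an unadjusted p under 0.05, 6 of the 16 were lower and 0 higher, beside 13.2% and 14.2% of all genes. Mup3 of this list differed by -0.58 and did not pass (adjusted p = 0.176). Others lay near 0 or above it and did not pass, such as Cyp2d9 (-0.05), Serpina4-ps1 (-0.01) and Selenbp2 (0.19). Of 12 measured female-biased genes 2 rose and 0 fell (median 0.43), beside 6.79% and 6.12% of all genes. The 2 included the cytochrome Cyp2b9, which rose by 5.70 (SE 0.69, adjusted p = 0.00924). It read 5.39 to 7.38 in the controls and 10.49 to 12.79 after Cre. The Cyp2b9 call was lost without control replicate 2 (adjusted p = 0.051). Cyp17a1 of the same list went the other way and did not pass (difference -1.20, adjusted p = 0.227). At an unadjusted p under 0.05, 3 of the 12 were higher and 0 lower, beside 14.2% and 13.2% of all genes. Apart from Moxd1 and Cyp2b9, the calls in both lists (Susd4, Nudt7, C6 and Cyp3a44) were each lost without 5 or 6 of the 7 arrays. Of the markers of position in the lobule, 0 of 11 pericentral markers passed (1 higher and 0 lower at an unadjusted p under 0.05), and of 8 periportal markers 1 rose and 2 fell. Asl, argininosuccinate lyase of the urea cycle, fell by 0.84 (adjusted p = 0.0012), and Arg1, arginase of the same cycle, fell by 0.42 (adjusted p = 0.0167, lost in 5 of the 7 fits). The 1 that rose, Sox9, rose by 0.37 (adjusted p = 0.0298, lost in 6 of the 7 fits).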

How the data were processed

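The 7 arrays were Affymetrix whole-transcript arrays labelled with biotin, per the labels' protocols. The deposited values are log2 probe set signals, which the authors' table gives for 21093 probe sets, from 3.15 to 14.7, with array medians of 7.07 to 7.09. The submitters' processing notes name GCOS 1.4. Not given in the sources used here were the steps of summarisation, normalization and background correction, and the log2 scale was read from the values. Platform annotation gave 17709 probe sets 1 gene symbol, 187 several and 3197 none, and 17648 of the first matched RefSeq by gene number. Unnamed and shared probe sets were left out. For the 463 genes with several probe sets the one with the highest mean was taken, which left 16819 genes.

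One fit of 3 groups was made with limma 3.58.1 (lmFit and eBayes, two-sided, 4 residual and 1.69 prior degrees of freedom) in R 4.3.3, with Benjamini-Hochberg adjustment over all genes and a threshold of 0.05. The number of arrays limits its precision. Both later groups share the 3 control arrays, so their comparisons with control are not independent. The fit was tested on simulated data. The named genes were those that passed, the brightest and the largest uncalled member of each family, up to 4 called and 1 uncalled gene of each list, and further members described by value. The members and lists were chosen with earlier results of these data known, and the 5 motifs were settled after other motifs had been looked at in the promoters. Alternatives were each group pair alone, the replicate number as a block, quantile normalization, median centring, no dim genes, the mean of probe sets, 2 other eBayes settings and leaving out each array.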

Additional observations from a re-analysis of the deposited data

How the results depend on the processing

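With all arrays, 4 enzymes changed at 2 weeks, 4 at 4 weeks and 7 with both times together. Fitted on the 2 groups alone, 2 changed at 2 weeks and 9 at 4 weeks. Without dim genes, which left 35 enzymes and 12614 genes, 7 changed at 2 weeks (20% of the 35, beside 11.2% of the 12614). With both times together, that fit called 28.6% of the 35 and 20.4% of the 12614, so the share over all genes was higher there too. Leaving out 1 array gave 0 to 7 enzymes at 2 weeks, 0 to 9 at 4 weeks and 3 to 12 with both together, 12 being 11 lower and 1 higher without the first 2-week array. The corresponding counts in the whole table were 997, 1643 and 2171, with 41 to 2168, 63 to 1948 and 570 to 2788 without 1 array, and 276 and 1948 for the groups alone. With the replicate number as a block, which leaves 2 residual degrees of freedom, 0 enzymes changed at 2 weeks, at 4 weeks and with both together, and 0, 2 and 5 genes in the whole table. The labels do not say that replicate numbers pair the animals. Same-numbered arrays deviated together with correlations of -0.065 to 0.111, so the numbers were not taken as pairs. The 4, 4 and 7 enzymes remained called under quantile normalization, median centring, no dim genes, the mean of probe sets and both eBayes settings, and no called enzyme changed sign in any alternative. The count with both times together was 10 under quantile normalization and without dim genes, and 9 under median centring and robust eBayes, and at 4 weeks it was 6 under quantile normalization and without dim genes. Between 4 and 2 weeks 0 enzymes changed in every alternative. The causes of the lost calls were not tested beyond the fewer arrays that each fit held. Of all genes, 38.2% had an identical value on 3 or more arrays, against 2 of the 41 enzymes, Gsto2 and Mgst2. How such ties arose, and how they bear on the spread that all genes share in the fit, was not tested.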
